A study of Mus musculus with 34 samples.

Results

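Transcript levels of 10 genes of the cellular response to low oxygen were examined in mouse livers and liver tumors in which a MYC transgene was active. The genes are Hif1a, Epas1, Vegfa, Egln1, Egln3, Bnip3, Ankrd37, Car9, Adm and Pdk1, taken by gene symbol from 3 deposited expression tables. The 3 tables together list 47049 gene symbols. All 10 genes were measured in the mixed-strain tumor table, 9 in the FVB tumor table, where Car9 was not analysed, and 7 in the Rag1-/- liver table, where Ankrd37, Car9 and Adm were not analysed. The list uses no measured value as a rule, but it was drawn up with earlier results of the same data known.

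The proteins HIF-1 alpha and HIF-2 alpha, encoded by Hif1a and Epas1, are transcription factors that are made all the time and destroyed while oxygen is present. Prolyl hydroxylases, among them those encoded by Egln1 and Egln3, use oxygen to mark the alpha subunits for the VHL ubiquitin ligase, so that the level of the protein and not that of its mRNA is the main point of control. When oxygen falls, the alpha subunits pair with ARNT, bind short DNA elements and raise genes of vessel growth, glycolysis, pH control and mitochondrial turnover. Egln1 and Egln3 are themselves targets, which gives the pathway a feedback loop. In the liver the pathway follows the oxygen gradient from the portal to the central vein, and in liver tumors it is known from poorly perfused regions.

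The tumors came from LAP-tta; TRE-MYC mice, in which withdrawal of doxycycline starts MYC expression in hepatocytes and leads to liver cancer. Arid1a, which encodes a subunit of the SWI/SNF chromatin remodeller that contacts DNA, was floxed in all tumor groups and was deleted only where the mice also carried the hepatocyte-restricted Alb-cre. The mixed-strain tumors (C57/B6, 129 and FVB background) were 8 Het (fl/+ with Alb-cre) and 8 WT (floxed without Cre), at about 90 days of age. The FVB tumors were 4 Homo (fl/fl with Alb-cre) at about 100 days, 4 Het (fl/+ with Alb-cre) at about 70 days and 4 WT (floxed without Cre) at about 55 days. Age and the presence of Cre therefore move with the genotype in the FVB tumors, Cre does so in the mixed-strain tumors too, and their parts in a difference cannot be told apart from that of Arid1a. The livers came from Rag1-/- mice, which lack mature T and B cells, with the same MYC transgenes and intact Arid1a, at about 42 days of age and 14 days after an adenovirus. The virus carried human ARID1A for 3 samples (ad-ARID1A) and Cre recombinase for 3 controls (ad-Cre), so Cre was given to the controls alone.

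Values are given as CPM, the reads of a gene in every 1000000 reads of its library. They are comparable between groups of 1 table and not between tables, which were normalized separately. They are not scaled to gene length, so they do not rank 1 gene against another. The low values gave a depth of 2.28 to 5.28 M reads (M, 1000000) per mixed-strain library, 6.63 to 12.03 per FVB library and 8.72 to 10.6 per Rag1-/- library. Arid1a, counted over the whole gene and so with no separate view of the deleted exon, ran from 250 to 330 CPM in Het and from 314 to 490 CPM in WT mixed-strain tumors. In FVB tumors it was 172 to 256 CPM in Homo, 185 to 292 CPM in Het and 212 to 311 CPM in WT, and in Rag1-/- livers 111 to 149 CPM with ad-ARID1A and 114 to 116 CPM with ad-Cre. Hepatocyte markers were present in every library, at a summed 2901 to 6925 CPM in Het and 5840 to 13640 CPM in WT mixed-strain tumors. In bulk tissue, fewer cells of a type and less RNA per cell cannot be told apart. Among mixed-strain tumors, WT 2 (90.7) and Het 6 (-81.9) lay at opposite ends of the first principal component. Het 5 (108) stood apart on the second. FVB WT 1 and WT 2 stood apart from the other FVB tumors on the first. Those FVB libraries also had the highest summed erythroid markers, at 509 and 521 CPM, against 21.2 and 50.5 CPM in the other 2 WT tumors.

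HIF dimers bind the core sequences ACGTG and GCGTG, and the windows around the gene starts were searched for both on both strands. Of the 10 genes, 9 had a RefSeq window of 300 bases, from 250 before to 50 after the start, with 11 windows in all because Vegfa and Pdk1 have 2 starts. Epas1 was not analysed for its window. At least 1 core was found in 9 of the 11 windows, beside 43.8% of the 32817 mouse windows of the same length. The count was 5 for Bnip3, 4 for Ankrd37, 3 for Hif1a, 2 each for Egln1 and Adm, and 1 each for Egln3 and Car9. Pdk1 had 2 in its first window and 0 in the other, and Vegfa had 0 in the window of its main start and 2 in the other. In the Bnip3 and Hif1a windows 2 of the cores are the 2 strands of CACGTG, the E-box bound by MYC and other helix-loop-helix factors, which 7.15% of all windows hold. A match describes letters only. The 4 windows printed here, 5′ to 3′ on the strand of the gene from RefSeq on GRCm38.p6, belong to Egln3, Bnip3, Ankrd37 and Car9. These are among the genes highest in 1 mixed-strain Het tumor described further on. Vegfa, Egln1 and Adm were also highest in that tumor within its group, and their windows are not printed. Capitals mark ACGTG and GCGTG or their reverse complements CACGT and CACGC. The Egln3 window is chr12:54203825-54204124 (minus strand), with the core 229 bases before the start. The Bnip3 window is chr7:138909457-138909756 (minus strand), the Ankrd37 window is chr8:45999801-46000100 (minus strand) and the Car9 window is chr4:43506776-43507075 (plus strand).
Egln3: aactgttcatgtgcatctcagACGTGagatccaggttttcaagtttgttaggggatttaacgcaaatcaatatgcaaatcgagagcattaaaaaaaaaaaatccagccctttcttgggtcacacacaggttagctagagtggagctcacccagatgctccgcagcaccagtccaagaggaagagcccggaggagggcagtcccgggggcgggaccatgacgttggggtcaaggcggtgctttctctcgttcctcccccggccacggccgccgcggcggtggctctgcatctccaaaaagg
Bnip3: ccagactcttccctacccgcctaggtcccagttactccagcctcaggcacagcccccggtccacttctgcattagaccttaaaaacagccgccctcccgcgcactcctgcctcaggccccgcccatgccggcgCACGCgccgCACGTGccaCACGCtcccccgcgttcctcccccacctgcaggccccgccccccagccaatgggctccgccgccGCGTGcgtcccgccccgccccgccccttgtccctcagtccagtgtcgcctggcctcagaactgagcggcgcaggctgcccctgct
Ankrd37: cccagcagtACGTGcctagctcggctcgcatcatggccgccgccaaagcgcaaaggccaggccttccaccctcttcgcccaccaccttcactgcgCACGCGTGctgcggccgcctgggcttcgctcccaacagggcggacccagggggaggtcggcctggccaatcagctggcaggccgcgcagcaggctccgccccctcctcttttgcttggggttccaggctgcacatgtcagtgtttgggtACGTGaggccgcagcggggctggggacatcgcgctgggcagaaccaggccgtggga
Car9: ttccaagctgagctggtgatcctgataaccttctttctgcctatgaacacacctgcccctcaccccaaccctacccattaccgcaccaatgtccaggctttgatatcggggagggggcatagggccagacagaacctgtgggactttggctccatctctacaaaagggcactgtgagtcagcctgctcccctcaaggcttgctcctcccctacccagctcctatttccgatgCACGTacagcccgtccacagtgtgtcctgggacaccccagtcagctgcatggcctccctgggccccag

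Loss of 1 Arid1a allele in the mixed-strain tumors was compared first for the 2 HIF alpha subunits. Hif1a (chr12:73901375-73947530 on GRCm38, plus strand) had 168, 257 and 308 CPM as its lowest, median and highest values in the 8 Het tumors, against 179, 238 and 257 CPM in the 8 WT tumors. Epas1 (chr17:86753700-86833410, plus strand) had 28.0, 65.3 and 86.4 CPM in Het tumors, against 43.9, 71.4 and 253 CPM in WT tumors. The Het and WT values overlapped for both genes. The highest Epas1 value was that of WT 2, the tumor with the highest sums of hepatocyte (13640 CPM), pericentral hepatocyte (2110 CPM), endothelial (850 CPM) and macrophage (1546 CPM) markers, whose part in it was not tested. The exons of Hif1a overlap those of the antisense gene Gm15283 and of Gm49321 on the same strand, and the labels do not say whether reads were counted by strand.

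The prolyl hydroxylase genes, which both sense oxygen and answer to HIF, were spread more widely than Hif1a and less widely than Epas1. Egln1 (chr8:124908587-124949324, minus strand) had 73.0, 119 and 197 CPM in Het tumors, against 94.7, 155 and 197 CPM in WT tumors. Egln3 (chr12:54178981-54203860, minus strand) had 90.8, 116 and 273 CPM in Het tumors, against 63.9, 136 and 259 CPM in WT tumors. For both genes the top of the Het range was tumor Het 5 and the top of the WT range was tumor WT 4. The groups overlapped across most of their ranges.

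The same pair of tumors held the highest values of the genes for secreted and membrane proteins. Vegfa (chr17:46016993-46032369, minus strand), the main ligand of vessel growth, had 38.7, 62.0 and 204 CPM in Het tumors, against 41.8, 64.4 and 180 CPM in WT tumors. Adm (chr7:110627661-110629820, plus strand), which encodes the vasodilator peptide adrenomedullin, had 0.753, 1.38 and 28.7 CPM in Het tumors, against 0.558, 2.57 and 33.1 CPM in WT tumors. Het 5 and WT 4 were the highest tumors of their groups for both genes, and the next value of Adm was 3.69 CPM in Het and 6.73 CPM in WT. Car9 (chr4:43506966-43513729, plus strand), a membrane carbonic anhydrase with a part in pH control, had 62.6 CPM in Het 5. In the other Het tumors it had 1.11, 0.905, 0, 1, 0.569, 0.223 and 1.69 CPM, and in WT tumors 0.376, 0, 0, 0.973, 0.625, 0.753, 0.840 and 0.866 CPM. Car9 was thus clearly above a few reads in Het 5 alone of the 16 tumors, and WT 4, so high for Adm and Vegfa, had 0.973 CPM. Its exons overlap those of the antisense gene Gm12454.

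Of the other 3 targets, Ankrd37 shared this pattern, Bnip3 did so in part and Pdk1 did not. Ankrd37 (chr8:45996902-46005707, minus strand, overlapping exons of the antisense genes Lrp2bp and Ufsp2) is an ankyrin repeat gene known as a HIF-1 target. It had 4.28, 9.13 and 27.1 CPM in Het tumors, against 2.20, 7.20 and 19.7 CPM in WT tumors, with Het 5 and WT 4 at the top. Bnip3 (chr7:138890836-138909519, minus strand, overlapping exons of the antisense gene Gm45507), a receptor for the removal of mitochondria, had 147, 234 and 310 CPM in Het tumors, against 204, 228 and 285 CPM in WT tumors. Its highest value was again in Het 5, but WT 4 had 228 CPM, at the WT median. Pdk1 (chr2:71873224-71903858, plus strand), the kinase that turns pyruvate away from mitochondria, had 175, 211 and 270 CPM in Het tumors, against 126, 226 and 270 CPM in WT tumors. Pdk1 was at 207 CPM in Het 5 and 219 CPM in WT 4, both near the middle of their groups, and Hif1a was at its lowest of all 16 tumors in Het 5.

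**Figure D1:**
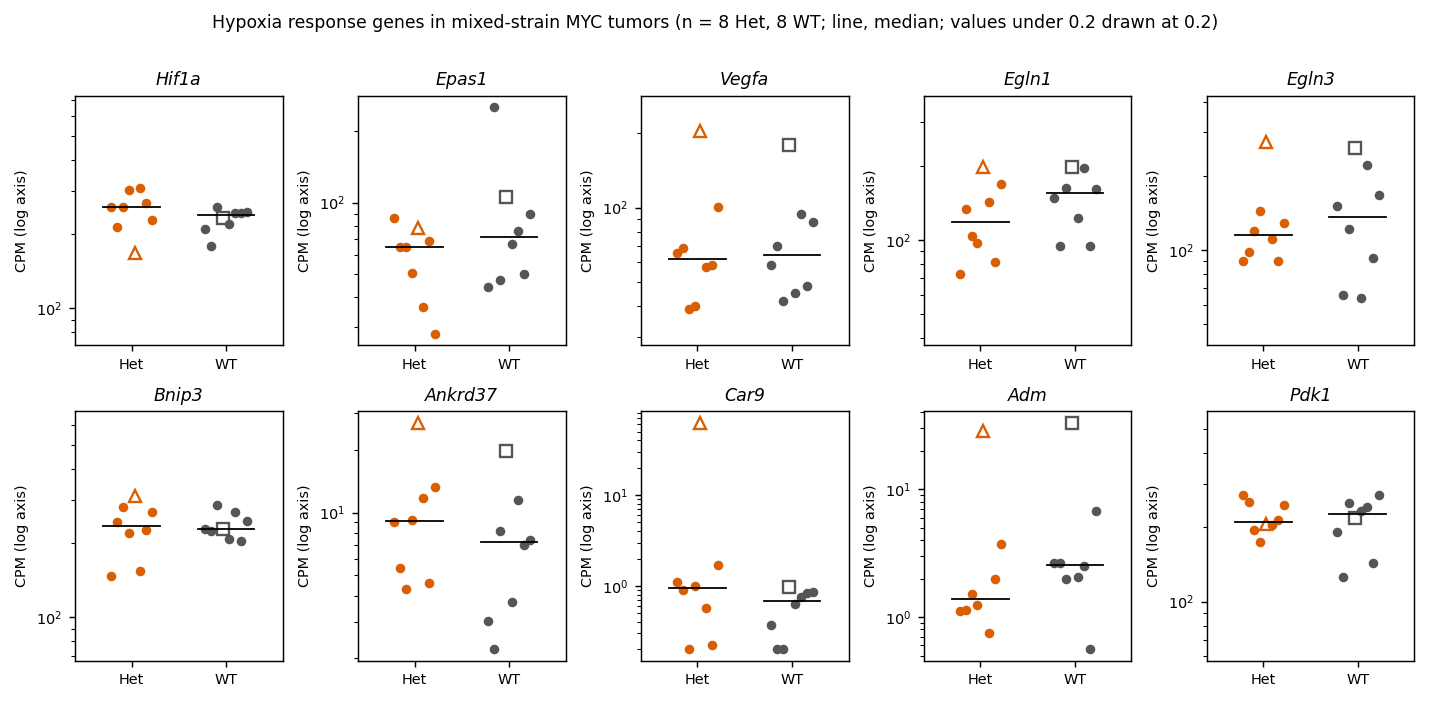
CPM (log axis) of the 10 hypoxia response genes in each mixed-strain tumor, Het on the left and WT on the right of each panel, with a line at the median of 8. The open triangle is Het 5 and the open square is WT 4, which sit at the top of their groups for Vegfa, Egln1, Egln3, Ankrd37 and Adm, while Car9 is high in Het 5 alone.

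The Het and WT values overlapped for all 10 genes. With limma over all 17552 genes tested, 28 had a Benjamini-Hochberg adjusted p under 0.05 and so passed (0.16%), and 0 of the 10 hypoxia response genes were among them. At an unadjusted p under 0.05 the count was again 0 of 10, beside 15.8% of all genes, and Het and WT were without overlap for 0 of 10, beside 0.137%. The log2 fold change of Het over WT ran from -0.47 for Adm to 0.97 for Car9, with a median of -0.03 over the 10 genes and 0.05 over all genes. The interval was narrow for genes of even level, at -0.37 to 0.23 for Bnip3 (95%), and wide for those that Het 5 or WT 4 dominated, at -0.52 to 2.47 for Car9 and -1.86 to 0.92 for Adm. Without Het 5 and WT 4, a choice made after their values were seen, the Car9 difference was 0.34 and 0 of the 10 genes passed. Without Het 5 alone it was 0.25. The Adm difference was -0.96 without Het 5 and -0.026 without WT 4, the ends of its range when 1 library was left out.

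Het 5 held 1 of the 2 highest values for 7 of the 10 genes among the 16 tumors, and WT 4 for 6. The same share was not counted over all genes. Of the 8 hypoxia response genes with a single highest tumor, 5 were highest in Het 5 and 1 in WT 4. Of 17103 genes of all kinds, 12.3% were highest in Het 5 and 7.02% in WT 4. Several of the hypoxia response genes varied together in the mixed-strain tumors. After the group means were taken away, 5 of the 45 pairs of genes had a Pearson correlation above 0.7 over the 16 tumors, with Vegfa and Adm highest at 0.87, Egln3 and Ankrd37 at 0.77, and Egln1 and Egln3 at 0.77. With Het 5 and WT 4 left out, 0 of the 45 pairs were above 0.7, and these 3 pairs had 0.57, 0.58 and 0.65. In the FVB tumors, treated the same way, 0 of 36 pairs were above 0.7, and the highest was 0.67. The points share libraries and cell content, and the values are a description.

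The genes whose pattern was most like a hypoxia response gene, over the same 16 tumors, were in part other known HIF targets. Flt1, a VEGF receptor, was the closest to Vegfa (r = 0.94) and to Adm (r = 0.93), and Ndrg1, a stress-induced gene, was the closest to Bnip3 (r = 0.88). Flt1 had 19.5, 31.6 and 139 CPM as its lowest, median and highest values in Het tumors, against 21.3, 29.5 and 93.4 CPM in WT tumors. Flt1 was highest in Het 5 and WT 4 within their groups, and its correlations without these tumors were not calculated. For Egln3, Ankrd37, Car9 and Epas1 the closest genes were AF529169, Nedd9, Pip4k2c and Spred1 (r = 0.90, 0.90, 0.93 and 0.88). In the FVB tumors the closest genes to Vegfa, Adm and Bnip3 were Klhl26, 3110043O21Rik and Prdx4 (r = 0.93, 0.91 and 0.94). None of the closest genes in the FVB tumors was on the pathway lists described next.

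The wider pathway was counted over 4 lists, of the HIF machinery, glycolysis and glucose transport, other HIF targets, and vessel ligands and receptors. Of 94 listed genes with a single highest tumor, 37 were highest in Het 5 (39.4%) and 13 in WT 4 (13.8%), beside 12.3% and 7.02% of 17103 genes of all kinds. In Het 5 these were 11 of 22 glycolysis genes, 17 of 35 other targets and 7 of 20 vessel genes, but 2 of 17 genes of the machinery. Slc2a1, the glucose transporter GLUT1, named here after its values were seen, had 283 CPM in Het 5 and 32.8 to 102 CPM in the other Het tumors, against 180 CPM in WT 4 and 37.3 to 94.0 CPM in the other WT tumors. Other features moved with the same tumors. Summed cholangiocyte markers (6 of 6 measured) were 478 CPM in Het 5 and 5.09 to 119 CPM in the other Het tumors, against 189 CPM in WT 4 and 8.32 to 78.0 CPM in the other WT tumors. Summed immediate early and heat shock genes (11 of 11 measured) were 1404 CPM in Het 5, 940 CPM in Het 8 and 226 to 383 CPM in the other Het tumors, against 1171 CPM in WT 4 and 359 to 638 CPM in the other WT tumors. Endothelial markers (14 of 14 measured) summed to 677 CPM in Het 5, the highest Het value, and stellate markers (11 of 11) to 269 CPM, the lowest. The part of these in the high values was not tested.

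**Figure D2:**
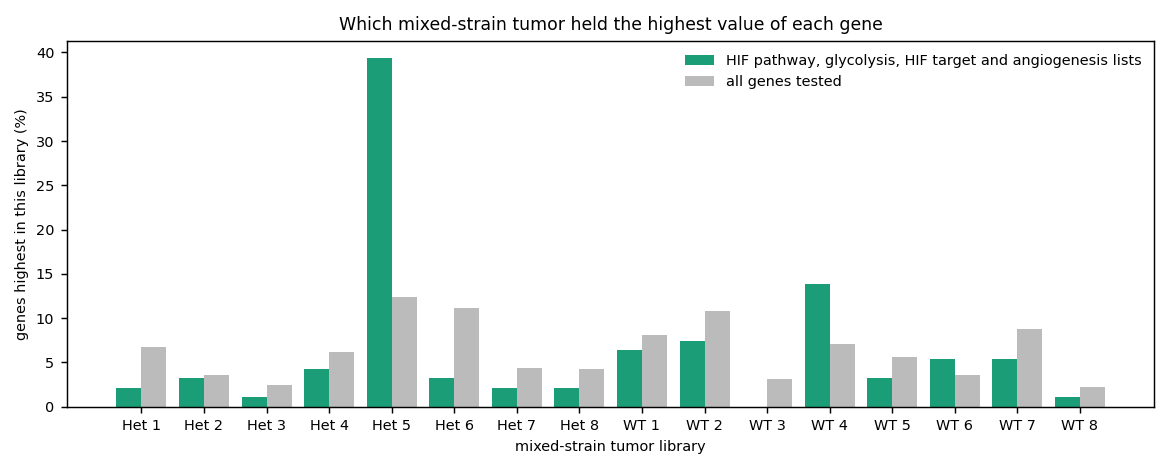
Share of genes (%) whose highest value among the 16 mixed-strain tumors lay in each tumor, for the 4 pathway lists together (green, 94 genes) and for all genes with a single highest tumor (grey, 17103 genes). Het 5 held 39.4% of the pathway genes and 12.3% of all genes, and WT 4 held 13.8% and 7.02%.

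Between the mixed-strain groups, 13 of 13 hepatocyte, 9 of 9 neutrophil, 8 of 8 erythroid and 9 of 11 stellate markers were lower in Het. So were 9 of 12 macrophage, 8 of 14 endothelial and 3 of 6 cholangiocyte markers, beside 7705 of all 17552 genes. Of these markers 1 passed, a macrophage marker, and their part in the gene differences was not tested. By genotype, 0 genes of the 4 lists passed in the mixed-strain tumors, of 17, 23, 36 and 20 tested. Their median log2 fold changes of Het over WT were -0.0036 for the machinery, -0.09 for glycolysis, -0.06 for other targets and -0.04 for vessel genes, and 1, 3, 1 and 4 of them had an unadjusted p under 0.05, beside 15.8% of all genes. The lowest p in each list belonged to Cited2, a competitor of HIF for its coactivators (0.40 ± 0.15 SE, limma adjusted p = 0.236), Ppp1r3c, a glycogen-targeting subunit of protein phosphatase 1 (-1.60 ± 0.39, adjusted p = 0.104, and 0.0328 without Het 2), Angptl4, an inhibitor of lipoprotein lipase (0.52 ± 0.16, adjusted p = 0.164), and Apln, the ligand apelin (1.81 ± 0.65, adjusted p = 0.209).

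In the FVB tumors, Homo and Het were each compared with the same 4 WT tumors, so the 2 sets of differences share their controls. The alpha subunits come first. Hif1a had 169, 155, 158 and 187 CPM in Homo, 147, 161, 178 and 181 CPM in Het, and 133, 148, 163 and 220 CPM in WT tumors. Epas1 had 32.0, 27.3, 19.0 and 35.8 CPM in Homo, 42.2, 42.8, 44.9 and 31.8 CPM in Het, and 32.4, 58.5, 39.1 and 26.4 CPM in WT tumors. The 3 groups overlapped for Hif1a, and for Epas1 the Homo values lay toward the lower end, with a log2 fold change of -0.53 ± 0.24 over Het and -0.43 ± 0.24 over WT (SE, adjusted p = 1 and 0.590).

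Bnip3 and Egln3 had the largest differences from WT among the hypoxia response genes in both FVB comparisons. Bnip3 had 109, 93.7, 99.7 and 112 CPM in Homo, 133, 145, 119 and 85.0 CPM in Het, and 80.4, 65.8, 86.8 and 72.0 CPM in WT tumors. All 4 Homo tumors were above all 4 WT tumors, and among the Het tumors Het 4 fell within the WT range. The log2 fold change was 0.45 ± 0.15 for Homo over WT (adjusted p = 0.331) and 0.64 ± 0.15 for Het over WT (adjusted p = 0.0999), so neither passed. Egln3 had 46.9, 63.6, 111 and 45.6 CPM in Homo, 75.6, 64.4, 68.6 and 50.2 CPM in Het, and 26.5, 22.2, 45.9 and 55.3 CPM in WT tumors. Homo overlapped WT through WT 3 and WT 4, and Het overlapped WT through WT 4 alone. The log2 fold change of Egln3 was 0.84 ± 0.31 for Homo over WT (adjusted p = 0.386) and 0.87 ± 0.31 for Het over WT (adjusted p = 0.231). WT 1 and WT 2 were the lowest WT tumors for Egln3. Without them its log2 fold change was 0.31 for Homo and 0.34 for Het over WT, and that of Bnip3 was 0.39 for Homo and 0.58 for Het over WT. Sums of stellate and erythroid markers in Homo and Het overlapped those in WT, though most of the single markers were lower than in WT. Stellate markers (11 of 11 measured) summed to 144 to 840 CPM in Homo, 559 to 778 CPM in Het and 542 to 893 CPM in WT tumors. Of them, 11 of 11 were lower in Homo than in WT with 0 passing, and 8 of 11 were lower in Het than in WT with 1 passing, Lrat (-2.50 ± 0.31, adjusted p = 0.0234). Erythroid markers (8 of 8 measured) summed to 27.8 to 103 CPM in Homo, 23.3 to 26.2 CPM in Het and 21.2 to 521 CPM in WT tumors, with 8 of 8 lower and 0 passing in both comparisons with WT. The high WT sums of erythroid markers were those of WT 1 and WT 2 (509 and 521 CPM), against 50.5 CPM in WT 3 and 21.2 CPM in WT 4. The part of these markers in the Bnip3 and Egln3 differences was not tested.

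The call on Bnip3 changed when library Het 4 was left out and when libraries were weighted. Without Het 4 Bnip3 differed between Het and WT by 0.80 with an adjusted p of 0.0205, and 169 genes in all passed in place of 4. Without WT 4, 256 genes passed in all and Bnip3 was not among them. With limma's array weights, which lower the weight of libraries that depart from their group, 2287 genes passed for Het over WT, among them Bnip3 (0.76, adjusted p = 0.00435) and Egln3 (1.22, adjusted p = 0.00681), while for Homo over WT neither did. Het 4 was the lowest Het tumor for 6 of the 8 hypoxia response genes with a single lowest one, which were Epas1, Egln1, Egln3, Bnip3, Ankrd37 and Pdk1. It was the lowest for 51.1% of 88 pathway genes and for 36.6% of all genes. Het 4 had the lowest sums of its group for hepatocyte (5066 CPM, against 7924 to 10590 CPM), endothelial (184 CPM, against 252 to 309 CPM) and macrophage markers (402 CPM, against 591 to 640 CPM), whose part was not tested.

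Of the remaining FVB genes, Vegfa alone had 2 groups without overlap. It had 28.6, 63.1, 55.3 and 43.7 CPM in Homo, 37.0, 36.5, 34.5 and 36.5 CPM in Het, and 42.2, 42.8, 42.8 and 39.1 CPM in WT tumors. Every Het tumor was below every WT tumor, while the Homo tumors spanned both, and the log2 fold change of Het over WT was -0.21 ± 0.19 (adjusted p = 0.691). Egln1 had 51.3, 76.1, 110 and 66.7 CPM in Homo, 71.5, 75.1, 68.1 and 53.5 CPM in Het, and 65.8, 53.1, 46.5 and 61.4 CPM in WT tumors. Pdk1 had 105, 115, 135 and 122 CPM in Homo, 121, 116, 127 and 97.01 CPM in Het, and 135, 112, 81.0 and 92.4 CPM in WT tumors. Ankrd37 had 2.14, 8.81, 3.92 and 5.32 CPM in Homo, 5.50, 4, 5.10 and 3.56 CPM in Het, and 4.23, 2, 4.66 and 5.82 CPM in WT tumors. These 3 genes overlapped in all comparisons. Adm was at the floor of the table, listed at 0 in all 4 Het tumors, in 2 Homo tumors and in 1 WT tumor, with 3.05 CPM in Homo 2 as its highest value.

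**Figure D3:**
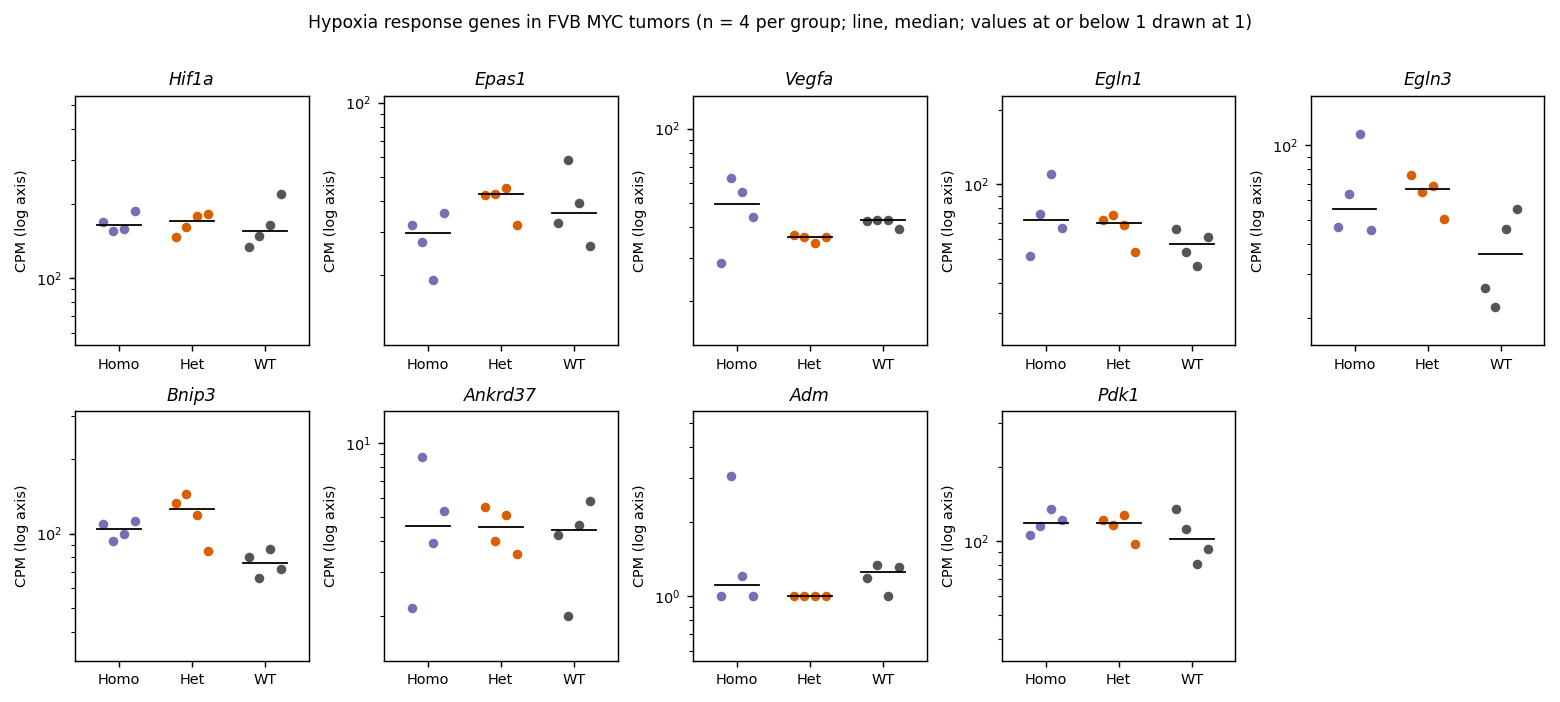
CPM (log axis) of 9 hypoxia response genes in the FVB tumors, with Homo, Het and WT from left to right and a line at the median of 4. Bnip3 in Homo lies above WT without overlap, Vegfa in Het lies below WT without overlap, and the fourth Het point of Bnip3 lies within the WT range.

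Of the 16140 genes fitted in the FVB table, 7 passed for Homo over WT (0.0434%), 4 for Het over WT (0.0248%) and 0 for Homo over Het (0%), and 0 of 9 hypoxia response genes were among them in each. At an unadjusted p under 0.05 the counts by limma were 2 of 9 for Homo over WT (10% of all genes), 2 of 9 for Het over WT (14.2%) and 1 of 9 for Homo over Het (3.86%). Groups did not overlap for 1 of 9 genes in Homo over WT (4.07% of all genes), 1 of 9 in Het over WT (6.88%) and 0 of 9 in Homo over Het (2.67%). The median log2 fold changes of the 9 genes were 0.20, 0.15 and 0.01 in the same 3 comparisons, beside -0.02, 0.02 and -0.04 over all genes. Between Homo and Het, the 95% interval was -0.30 to 0.31 for Hif1a, -0.52 to 0.14 for Bnip3 and -0.71 to 0.63 for Egln3.

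In the wider pathway, 0 listed genes passed in the 3 FVB comparisons, of 17 machinery, 23 glycolysis, 35 other target and 18 vessel genes tested. For Homo over WT, 2, 1, 3 and 0 of them had an unadjusted p under 0.05 (10% of all genes), with median log2 fold changes of -0.05, 0.15, 0.20 and -0.02. For Het over WT the counts were 3, 3, 6 and 2 (14.2% of all genes), with medians of -0.01, 0.09, 0.09 and -0.13, and for Homo over Het 1, 1, 4 and 0 (3.86%), with medians of -0.04, 0.03, 0.13 and 0.08. Hif3a, a HIF subunit whose short forms restrain the other subunits, had 471, 195, 307 and 170 CPM in Homo, 537, 596, 526.4 and 194 CPM in Het, and 89.9, 99.7, 163 and 212 CPM in WT tumors. Het 4 was again the Het tumor within the WT range, and the log2 fold change of Het over WT was 1.68 ± 0.40 (adjusted p = 0.0975, 0.0232 without Het 4, 0.0469 without WT 4 and 0.00277 with array weights). Zfp395, a zinc finger gene, had 141, 133, 129 and 101 CPM in Het tumors, against 75.6, 73.5, 70.0 and 93.7 CPM in WT tumors, without overlap (0.69 ± 0.13, adjusted p = 0.0623). Its adjusted p was 0.0205 without Het 4, 0.0211 without WT 4 and 0.00185 with array weights. Lox, which cross-links collagen, had a log2 fold change of 1.41 ± 0.28 in Homo over WT (adjusted p = 0.104, and 0.0439 without WT 4), and Angptl4 one of 0.998 ± 0.236 in Het over WT (adjusted p = 0.0975, 0.0229 without Het 4, 0.0457 without WT 4 and 0.00368 with array weights). Other listed genes were lower. Pfkm, a glycolysis gene, lay below WT without overlap in Homo (-1.76 ± 0.43, limma adjusted p = 0.172) and Het (-1.66 ± 0.43, adjusted p = 0.114). Its adjusted p for Het was 0.00423 with array weights. The vessel genes Kdr (-0.66 ± 0.29, adjusted p = 0.314) and Flt4 (-0.76 ± 0.35, adjusted p = 0.351) were lower in Het over WT, with overlap. With array weights these were 0.0270 and 0.0349. Homo 2 and Homo 3 held the highest value of 18 and 19 of 89 pathway genes among the 12 tumors (20.2% and 21.3%), beside 6.70% and 5.72% of all genes. These tumors had the highest Homo values of Vegfa, Egln1 and Egln3, and the highest sums of immediate early and heat shock genes (428 and 372 CPM, against 163 to 312 CPM in the other 10 tumors), whose part was not tested.

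In the Rag1-/- livers, where the question was what extra ARID1A does in MYC livers with intact Arid1a, 0 of 7 hypoxia response genes passed. Epas1 had 315, 350 and 313 CPM with ad-ARID1A, against 294, 290 and 278 CPM with ad-Cre. All 3 ad-ARID1A livers were above the 3 controls, by a log2 fold change of 0.18 ± 0.08 (adjusted p = 0.396). Endothelial markers, of cells known to be rich in Epas1, summed to 663 to 759 CPM with ad-ARID1A and 590 to 662 CPM with ad-Cre, with 13 of 14 higher and 0 of 14 passing, beside 9297 of all 14074 genes higher, and their part was not tested. Hif1a had 68.6, 70.0 and 52.4 CPM with ad-ARID1A, against 58.1, 57.7 and 58.1 CPM with ad-Cre.

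Bnip3 had 67.7, 78.8 and 56.1 CPM with ad-ARID1A, against 45.3, 60.1 and 51.3 CPM with ad-Cre, with an overlap and a log2 fold change of 0.37 ± 0.14 (adjusted p = 0.341). Egln3 had 4.26, 7.21 and 7.83 CPM with ad-ARID1A, against 11.1, 7.83 and 8 CPM with ad-Cre (-0.51 ± 0.27, adjusted p = 0.480). Neither difference passed, and the groups met or overlapped. Vegfa had 190, 178 and 157 CPM with ad-ARID1A, against 171, 170 and 171 CPM with ad-Cre. Egln1 had 29.4, 29.7 and 26.2 CPM with ad-ARID1A, against 24.6, 24.6 and 31.1 CPM with ad-Cre. Pdk1 had 92.4, 105 and 61.8 CPM with ad-ARID1A, against 77.7, 72.0 and 66.3 CPM with ad-Cre. Their 95% intervals were -0.17 to 0.23 for Vegfa, -0.20 to 0.39 for Egln1 and -0.15 to 0.61 for Pdk1.

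**Figure D4:**
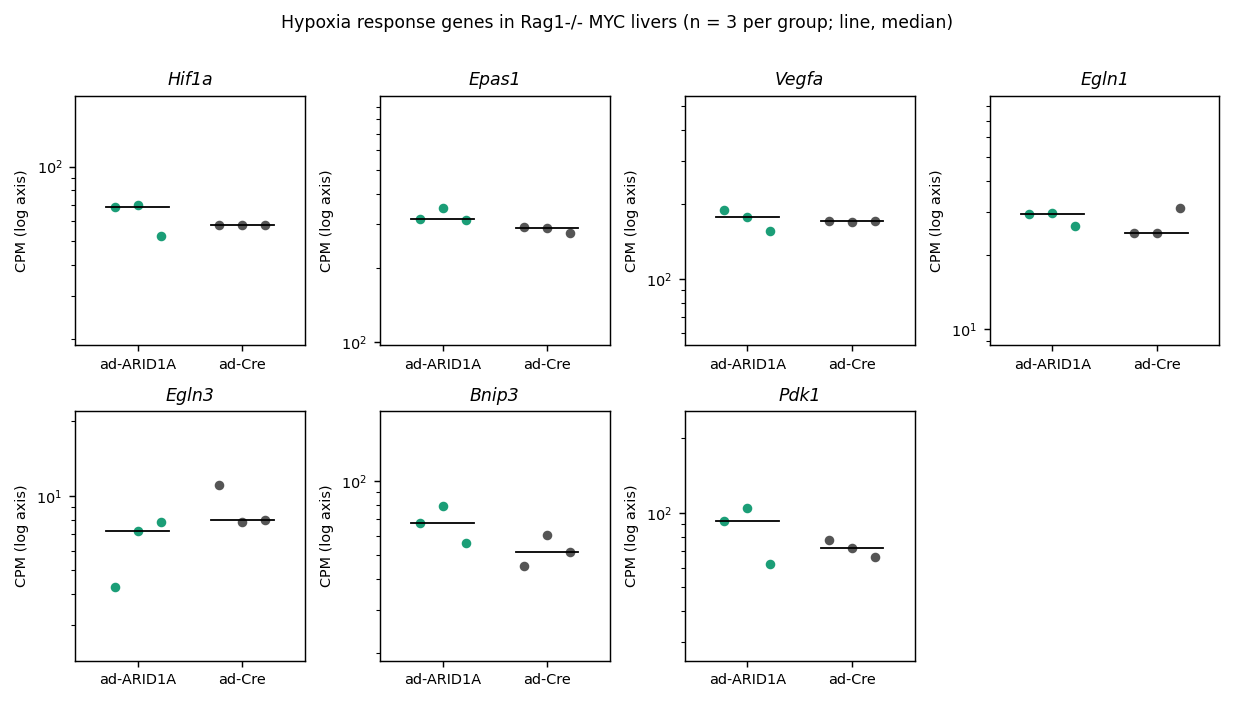
CPM (log axis) of 7 hypoxia response genes in the Rag1-/- livers, ad-ARID1A on the left and ad-Cre on the right, with a line at the median of 3. Epas1 is the only one of the 7 in which all ad-ARID1A livers (313 to 350 CPM) lie above all ad-Cre livers (278 to 294 CPM).

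With limma, 45 of 14074 genes passed for ad-ARID1A over ad-Cre (0.32%) and 0 of 7 hypoxia response genes did, while 2 of 7 had an unadjusted p under 0.05 (12.5% of all genes). Groups did not overlap for 1 of 7, beside 17.4% of all genes. The median log2 fold change was 0.12 over the 7 genes and 0.09 over all genes. Of the pathway lists, 0 of 15 machinery genes, 0 of 21 glycolysis genes, 1 of 33 other targets and 0 of 13 vessel genes passed, with medians of 0.10, 0.01, 0.05 and 0.21, and 2, 1, 5 and 4 had an unadjusted p under 0.05, beside the 12.5% of all genes. The gene that passed was Bhlhe40, a repressor of the circadian clock that HIF is also known to raise. It had 111, 130 and 145 CPM with ad-ARID1A, against 57.3, 73.0 and 49.5 CPM with ad-Cre, without overlap. Its log2 fold change was 1.11 ± 0.15 (adjusted p = 0.0246). The call was lost when any 1 of the 3 ad-ARID1A livers, ad-Cre 1 or ad-Cre 3 was left out (adjusted p = 0.106 to 0.166, with log2 fold changes of 0.985 to 1.21) and without the variance trend (adjusted p = 0.154, log2 fold change again 1.11). Summed immediate early and heat shock genes (8 of 11 measured) were 108 to 150 CPM with ad-ARID1A and 87.9 to 104 CPM with ad-Cre, with 6 of 8 higher and 0 of 8 passing. Stellate markers (11 of 11 measured) summed to 525 to 621 CPM with ad-ARID1A and 303 to 562 CPM with ad-Cre, with 9 of 11 higher and 0 of 11 passing. The part of both in the Bhlhe40 difference was not tested. Pim1, a kinase gene, had 27.7, 29.0 and 25.5 CPM with ad-ARID1A, against 15.7, 15.5 and 10.2 CPM with ad-Cre (1.02 ± 0.18, adjusted p = 0.0546, 0.0436 with the replicate number as a block and 0.0484 with array weights).

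Across the 5 comparisons, the fitted differences of the hypoxia response genes lay between -0.53 and 0.97 on the log2 scale. Bnip3 was the gene whose interval excluded 0 in 3 comparisons before adjustment, at 0.12 to 0.78 for FVB Homo over WT, 0.31 to 0.97 for FVB Het over WT and 0.04 to 0.69 for ad-ARID1A over ad-Cre, with the first 2 sharing their WT tumors. None of these differences passed (limma adjusted p = 0.331, 0.0999 and 0.341). Arid1a was deleted in the first 2 and ARID1A was added in the third. Cre was present in the FVB Homo and Het tumors and in the ad-Cre controls, so its part cannot be told apart. The part of ARID1A was not tested. In the mixed-strain tumors the Bnip3 interval was -0.37 to 0.23.

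**Figure D5:**
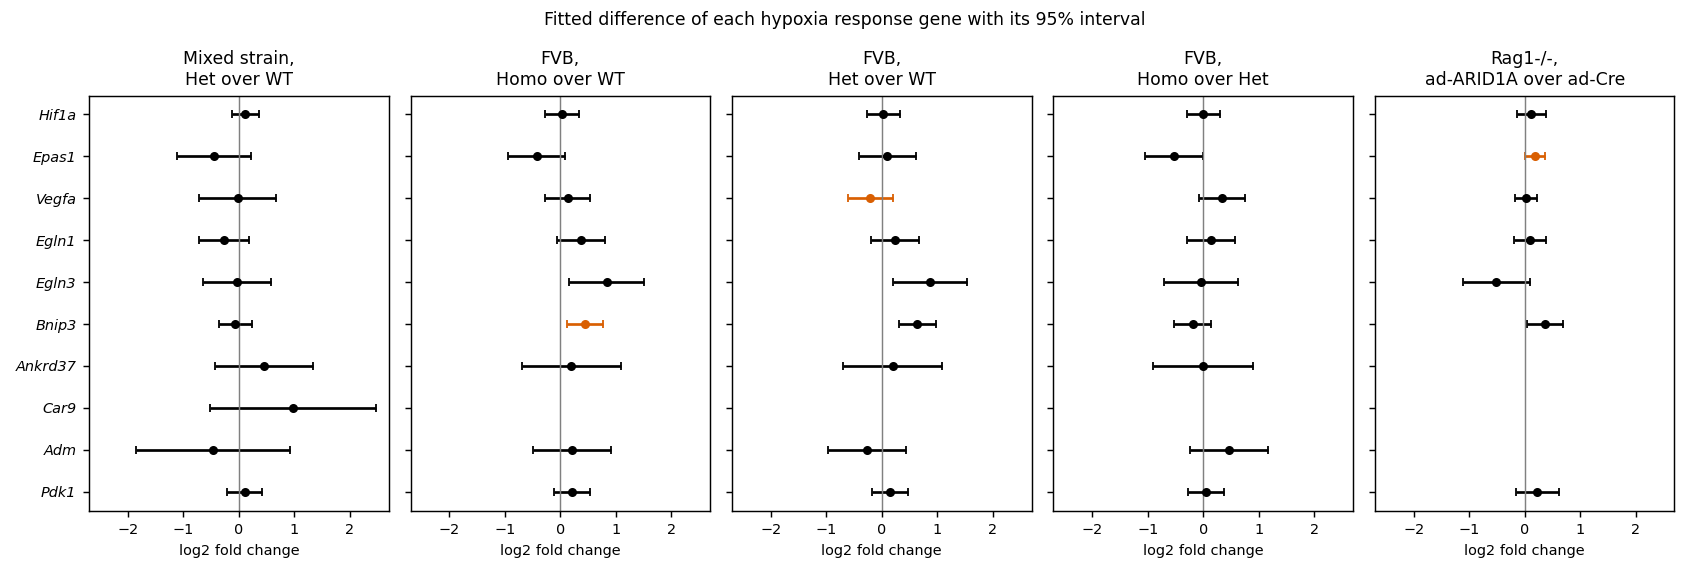
Fitted log2 fold change of each hypoxia response gene (points) with its unadjusted 95% interval (bars) in the 5 comparisons. Orange marks the genes whose groups did not overlap, Bnip3 in FVB Homo over WT, Vegfa in FVB Het over WT and Epas1 in ad-ARID1A over ad-Cre. Genes not analysed in a table have no point.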

How the data were processed

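RNA sequencing values of 34 mouse tumor and liver libraries were read from 3 tables. Per the submitters' processing notes, reads went through Trim Galore, HISAT2, SAMtools and featureCounts on GRCm38 (mm10). No version or strand setting is given there. The FVB and Rag1-/- tables hold log2 CPM as deposited, with values at or below 1 CPM listed at 0. The mixed-strain table is named RPKM, but its deposited log2 values move as log2(CPM + 1) does and were used so. The planned test therefore ran on log2(CPM + 0.5) for the 17552 genes with a mean CPM of at least 0.5, and in the other tables on the deposited values, where every gene passed a mean of at least 0. Fold changes on these scales understate changes of low genes. Low values were whole multiples of 1 read (largest gap 0.0884 reads), which gave the depths. Higher values are too coarsely rounded for a count test.

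Each table was fitted alone with limma 3.58.1 in R 4.3.3 (lmFit, eBayes with a variance trend, two-sided, Benjamini-Hochberg over all genes), after a check on simulated data. The 3 FVB groups shared 1 fit. The labels do not say that samples are separate mice, so p-values cover the spread between these samples. The labels give Het and Homo the same treatment text, so the genotype field was used, and because the ad-ARID1A samples' descriptions name ad-Cre columns, ad-ARID1A columns were matched to them by title and number. Gene positions are from GENCODE M21.

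Named genes are the 10 genes, from each pathway list the genes that passed and the 2 with the smallest p, of which the text gives those that matter, and the 2 genes most like each by Pearson correlation among genes with a mean log2 value of at least 3. The genes, lists and tests were chosen with earlier results of these data known. Alternatives were the replicate block, no variance trend, median scaling, array weights, other pseudocounts and filters, 2-group fits and left-out libraries. Neutrophil and erythroid markers, checked beside the other marker lists, summed to 0 to 173 CPM and 6.44 to 521 CPM over the tumors.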

Additional observations from a re-analysis of the deposited data

Results flagged for a closer look

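Of 46 sets of 4 to 8 tumors, 1 set for each gene and group, 5 had a highest or lowest tumor farther from its neighbour than expected from the range of its group, and chance gives about 1 in 20. In mixed-strain Het tumors, Het 5 was far above the others for Egln3 (273.4 CPM), Car9 (62.56 CPM) and Adm (28.65 CPM). In FVB WT tumors, WT 4 was below the other 3 for Vegfa (39.12 CPM, against 42.2 to 42.8 CPM). In FVB Homo tumors, Homo 2 was above the other 3 for Adm (3.053 CPM). For 0 of the 9 genes measured in both strains did every Het tumor move one way in one strain and the opposite way in the other. That count was fixed, because the rule needed groups without overlap in both strains and all of these genes overlapped in the mixed-strain tumors. It gives no view of agreement between the strains.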

How the results depend on the processing

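The 28 genes of mixed-strain Het over WT became 75 with the replicate number as a block, 101 with array weights, 14 without the filter on low values, 16 without Het 5 and WT 2, and 14 without Het 5 and WT 4. The 4 of FVB Het over WT became 0 with the replicate block, 8 with median scaling, 2287 with array weights (2 hypoxia response genes among them), 0 at a mean log2 CPM of at least 2, 1 with the 2 groups alone and 1 without WT 1 and WT 2. The 7 of FVB Homo over WT became 1 with the replicate block, 21 with array weights, 0 at the higher filter, 0 with the 2 groups alone and 3 without WT 1 and WT 2. The 45 of ad-ARID1A over ad-Cre became 1 without the variance trend. Leaving out 1 library gave 8 to 138, 0 to 256, 0 to 36, 0 to 3 (FVB Homo over Het) and 0 to 19, and 0 to 1 hypoxia response genes for FVB Het over WT, that 1 being Bnip3 without Het 4.

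Small differences changed sign. These were Pdk1 with array weights in mixed-strain tumors (-0.057), and in FVB Het over WT Hif1a with median scaling (-0.0081), Hif1a (-0.19) and Ankrd37 (-0.22) without WT 1 and WT 2. In FVB Homo over WT they were Hif1a (-0.18) and Ankrd37 (-0.22) without WT 1 and WT 2, and in Homo over Het Egln3 (0.0048) and Ankrd37 (0.037) with median scaling and Ankrd37 (0.11) and Pdk1 (-0.022) with array weights. In Rag1-/- livers Vegfa was at -0.046 with median scaling. Without 1 library, mixed-strain Egln3 ran from -0.20 to 0.10, Bnip3 from -0.13 to 0.020 and Vegfa from -0.25 to 0.17. FVB Het over WT ran from -0.069 to 0.17 for Hif1a, -0.12 to 0.39 for Ankrd37 and -0.068 to 0.32 for Epas1. FVB Homo over WT ran from -0.022 to 0.36 for Vegfa, -0.13 to 0.55 for Ankrd37, -0.17 to 0.37 for Adm and -0.064 to 0.18 for Hif1a. Homo over Het ran from -0.054 to 0.046 for Hif1a, -0.32 to 0.11 for Egln3, -0.33 to 0.35 for Ankrd37, -0.058 to 0.31 for Egln1 and -0.031 to 0.11 for Pdk1. Vegfa in Rag1-/- livers ran from -0.032 to 0.11. The cause was not tested.

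Same-numbered samples did not deviate together (correlations of -0.20 to 0.28 over the 5 comparisons), and 2 of 8, 2 of 4, 3 of 4, 1 of 4 and 1 of 3 correlated best with their own number, so the block pairs by number only. Depth limits the low genes: Car9 and Adm rest on few reads in most tumors, and the floor at 1 CPM in the FVB table hides Adm.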
